A study of Mus musculus with 6 samples.

Results

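To describe the transcripts of the cytosolic ribosomal proteins in an L-cell line, probes were taken from an array table when their symbol, in upper case, was RPL, RPS or RPLP with a number and at most 1 of the endings A, X, L, AL or L1. The rule reads symbols and no measured value. It gave 101 of 45281 probes and 68 of 30854 symbols, of which 40 genes (61 probes) encode proteins of the large subunit and 28 genes (40 probes) proteins of the small subunit. The RNA came from mGLUTag cells, a mouse line that models the endocrine L-cell of the gut, the source of the incretin GLP-1. All samples had been starved in low serum, treated with forskolin, which raises cAMP and synchronizes the clock, and returned to growth medium. The groups differed only in the time of collection, 4 h (n = 3) or 16 h (n = 3), and each sample was hybridized to 1 array. The study chose these times as the high and the low point of Arntl (Bmal1) mRNA, a core clock gene, so the comparison asks which transcripts differ between them. The cells are 1 male line, and no sources used here state whether the 3 samples of a time came from separate cultures, so the p-values measure only the spread between these samples.

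Ribosomal proteins assemble with ribosomal RNA in the nucleolus into a small subunit, which decodes the mRNA, and a large subunit, which joins the amino acids. Their genes are transcribed strongly in nearly every cell. Their mRNAs as a rule begin at a C followed by further pyrimidines, the 5′ terminal oligopyrimidine (TOP) tract, through which LARP1 and mTOR control their translation after growth signals, starvation and feeding, so that the level of the mRNA and its use by the ribosome need not move together. Arrays measure the level alone.

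Start-site sequences were available for 53 of the 68 genes in RefSeq (GRCm38.p6), as 250 bases before and 50 bases from each annotated start, with the first entry used where a gene had several. A run of 8 or more bases that were each C or T, on the coding strand and overlapping the 10 bases on either side of the start, was present in 24 of 53 genes (45.3%), against 3651 of 27025 genes of the table (13.5%). It was found in 14 of 32 large-subunit and 10 of 21 small-subunit genes. A C at the annotated base itself with 4 or more C or T after it was present in 10 of 53 members (18.9%) and in 2.49% of all genes. Over the whole 300 bases and on either strand, the letters CCGGAAG were present in 22 members (41.5%, against 9.12% of all genes), GGGCGG in 33 (62.3%, against 35.9%) and TATAAA in 5 (9.43%, against 14.2%). The reverse strand of CCGGAAG or GGGCGG can share bases with a run of C or T. A match describes letters and not a site in use, and the start that these cells use was not measured. The windows below run from 30 bases before the start to 20 bases from it, 5′ to 3′ on the coding strand, and are shown for the genes with the smallest p in either direction whose start was in the table, for the paralogue of Rpl22, and for Rpl7a, which had the longest run. Capitals mark the run of C or T.
Rps10, minus strand of chr17:27635225-27635274: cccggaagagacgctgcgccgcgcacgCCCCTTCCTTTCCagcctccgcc
Rpl10a, plus strand of chr17:28328441-28328490: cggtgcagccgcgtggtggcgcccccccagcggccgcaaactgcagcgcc
Rpl4, plus strand of chr9:64173357-64173406: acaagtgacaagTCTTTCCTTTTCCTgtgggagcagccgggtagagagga
Rpl22, plus strand of chr4:152325696-152325745: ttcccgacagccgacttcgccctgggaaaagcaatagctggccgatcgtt
Rpl22l1, plus strand of chr3:28805478-28805527: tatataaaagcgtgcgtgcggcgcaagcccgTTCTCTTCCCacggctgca
Rpl7a, plus strand of chr2:26910777-26910826: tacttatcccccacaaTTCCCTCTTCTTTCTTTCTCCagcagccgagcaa
Of these 6 genes, Rps10, Rpl22l1 and Rpl7a had a run across or next to the start, Rpl4 had one that ended upstream of it, and Rpl10a and Rpl22 had none. The median log2 change between the time points was -0.062 in the 22 detected genes with a run and -0.055 in the 25 detected genes without one, each gene taken at its brightest probe.

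The arrays were checked before the members were compared. The noise limit of each array, the 99th percentile of its values below 0 with their sign turned, was between 9.2 and 14 intensity units, and 14941 probes (33.0%) exceeded it on all 6 arrays and are called detected below. The 4 h arrays were brighter, with a mean intensity over all probes of 291 to 354 against 216 to 246 at 16 h. Values were therefore compared as log2 of intensities corrected by normexp and quantile normalized, a scale that reports each probe relative to the others and cannot show a change shared by most of them. All changes are 4 h minus 16 h. Of 12 L-cell markers, 9 were detected, among them Gcg (proglucagon) at intensities of 11298 to 21126, whereas Pyy was at background on every array. Of 4 immune and 3 endothelial markers with a probe none was detected, and of 6 fibroblast markers only Col1a1 was, at 17.2 to 42 units. The probes for 18S ribosomal RNA, which has no poly(A) tail, differed widely between arrays: the brightest of the 3 ranged from 55.2 to 3139 units, and was high on 4 h replicates 1 and 3 and 16 h replicate 1.

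Transcripts of ribosomal proteins were among the brightest on the array. Of the 101 probes, 79 (78.2%), for 60 genes, were detected, 3 exceeded the noise limit on 3 to 5 arrays, 2 on 1 or 2 arrays and 17 on none. The median of the 79 detected probes was 13.36 on the normalized log2 scale, and their median lay at percentile 98.9 of the other detected probes. A total of 52 were above the 95th percentile, 35 above the 99th and 8 below the 50th. Members made up 24 of the 100 brightest probes of the table and 39 of the 200 brightest, while 49 of the 100 had names that matched no present protein-coding gene. With values below 0 set to 0, the members held 6.54%, 6.45% and 5.91% of the summed intensity on the 4 h arrays and 7.14%, 6.49% and 7.35% on the 16 h arrays, so that the ranges of the time points overlapped. Brightness also depends on how well each probe binds, so its order among genes is not an order of mRNA copies. Ribosomal protein genes have many processed pseudogenes, and whether a probe also binds transcripts of these was not tested.

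**Figure D1:**
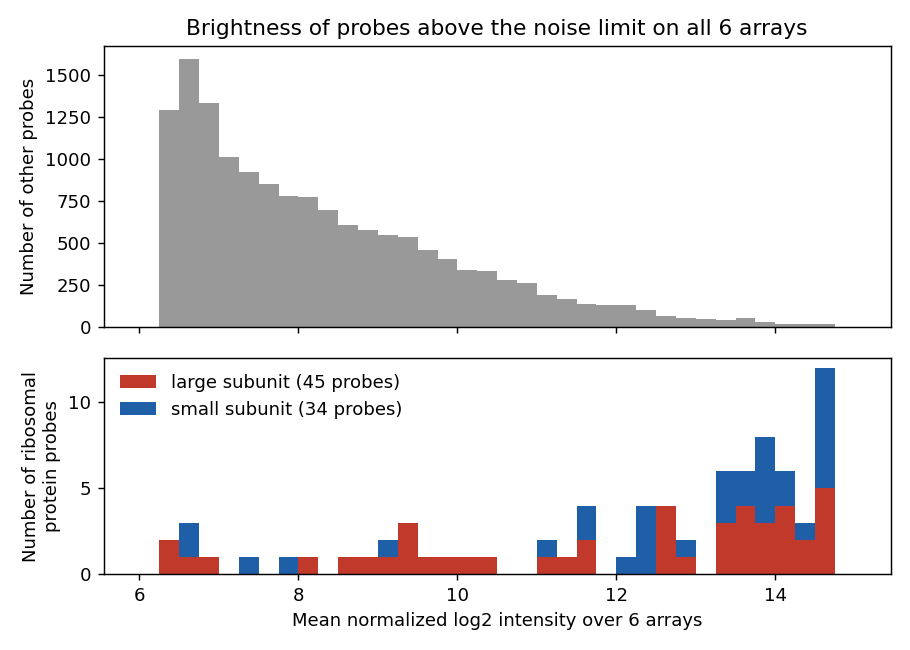
Number of probes by mean normalized log2 intensity over the 6 arrays, for the other detected probes (top, grey) and for ribosomal protein probes (bottom, stacked by subunit). The other probes have a median of 7.89, whereas 52 of the 79 ribosomal protein probes lie above the 95th percentile of the others.

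Members of both subunits were bright. The median of detected probes was 12.66 for the large subunit (45 probes, 35 genes) and 13.57 for the small subunit (34 probes, 25 genes) on the normalized log2 scale, and with each gene at its brightest probe it was 13.57 and 13.80. The quartiles, 9.55 to 13.98 for large-subunit and 12.24 to 14.14 for small-subunit probes, overlapped. The brightest probes of the large subunit were those of Rpl37 (ILMN_2696977) and of Rplp1 and Rplp2, the acidic proteins of the stalk that recruits translation factors. Rpl37 read 30578, 26901 and 28190.3 units on the 4 h arrays and 24171, 24128 and 25131 units on the 16 h arrays. For the small subunit they included Rps12 and Rps29, and Rps12 (ILMN_2542938) was the brightest probe of the whole table. It read 36079, 30409.5 and 27514 units at 4 h and 23475, 23821 and 24695 units at 16 h. Every 4 h value of both probes was above every 16 h value on this unnormalized scale, as it was for the arrays as a whole. After normalization the change was -0.06 for Rpl37 and 0.08 for Rps12, with overlapping time points (limma adjusted p = 0.968 and 0.958).

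At the other end of the detected genes were those whose brightest probe was the dimmest of their subunit. In the large subunit these were Rpl21, Rpl22l1 and Rplp0, the scaffold of the stalk, whose detected probe (ILMN_2744356) read 468, 395 and 335 units at 4 h and 250.1, 268 and 237 units at 16 h, at percentile 63.4 of detected probes. In the small subunit they were Rps15a, Rps27a, which is made as a fusion with ubiquitin, and Rps3a, of which the last 2 still lay at percentiles 92.4 and 94.2 of detected probes. Rps15a (ILMN_2717621) was near the noise limit, at 76.6, 31.5 and 24.3 units at 4 h and 40.1, 24.9 and 18.2 units at 16 h. Every probe of 8 genes stayed at background: Rpl14, Rpl17, Rpl6, Rps18, Rps20 and Rps23 never exceeded the noise limit, and neither did Rpl3l and Rpl39l, paralogues known from striated muscle and testis. A probe at background gives a bound on its own signal only.

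Of the 3 genes that mark the group, Rpl3, whose protein reaches to the peptidyl transferase centre, had 13.70, 13.76 and 13.73 at 4 h and 13.80, 13.76 and 13.70 at 16 h on the normalized log2 scale (ILMN_2974021). The time points overlapped, and the change was -0.03 (SE 0.065, limma adjusted p = 0.984). Rps3, which lies at the entry of the mRNA into the small subunit, had 13.45, 13.39 and 13.23 at 4 h and 13.50, 13.38 and 13.55 at 16 h at its brighter probe (ILMN_2594103). Its change was -0.12 (SE 0.082, limma adjusted p = 0.949). The dimmer probe of Rps3 gave -0.22. Rplp0 had 8.70, 8.80 and 8.32 at 4 h and 8.45, 8.49 and 8.63 at 16 h, a change of 0.09 with an SE of 0.120 (limma adjusted p = 0.974). None of the 3 differed beyond the spread of its arrays.

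No ribosomal protein probe differed between 4 h and 16 h at an adjusted p under 0.05 by limma over all 45281 probes, where 4 probes of the table (0.00883%) did. The changes of the 79 detected members ran from -0.35 to 0.23, with quartiles of -0.12 and 0.026 and a median of -0.047. Of these, 52 were below 0 and 27 above, whereas over all detected probes the median was 0.0014 and 49.6% were below 0. At an unadjusted p under 0.05, 3 members, among them Rps10 and Rpl10a, were lower at 4 h, where 5.17% of detected probes were, and 2 were higher (Rpl4 and Rpl22), where 5.72% were. All 4 h arrays lay below all 16 h arrays in 6 members, where 5.51% of detected probes did so, and above them in 4 members, where 6.12% did. These counts, 3 and 2 and 6 and 4 of 79, are near the background of the table. Large-subunit members had a median change of -0.055 (28 of 45 below 0) and small-subunit members one of -0.045 (24 of 34 below 0), and the difference of -0.010 turned to 0.041 without 4 h replicate 1 and was between -0.021 and 0.0079 without any other array.

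Since bright probes can respond less than dim ones, each member was set against the 200 detected non-member probes nearest to it in brightness. Relative to them the median change of the 79 members was -0.044, and 53 members were below and 26 above. In the 52 members above the 95th percentile of brightness the median change was -0.055 with 40 below 0, and in the 27 dimmer members it was 0.012 with 12 below 0. When single arrays were left out, the shift was most sensitive to 16 h replicate 1. Without 16 h replicate 1 the median relative to like brightness was -0.00014, with 40 of 79 members below, and without any other single array it lay between -0.076 and -0.019. Among the 3 arrays with a high 18S signal (2 at 4 h, 1 at 16 h) it was -0.11 with 59 below, among the 3 with a low signal (1 at 4 h, 2 at 16 h) -0.039 with 48 below, and with the 18S level as a second term of the model -0.058 (61 below). Each of these subsets has a time point of 1 array and no spread, and the lone 16 h array with a high signal is replicate 1, so they describe single arrays.

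**Figure D2:**
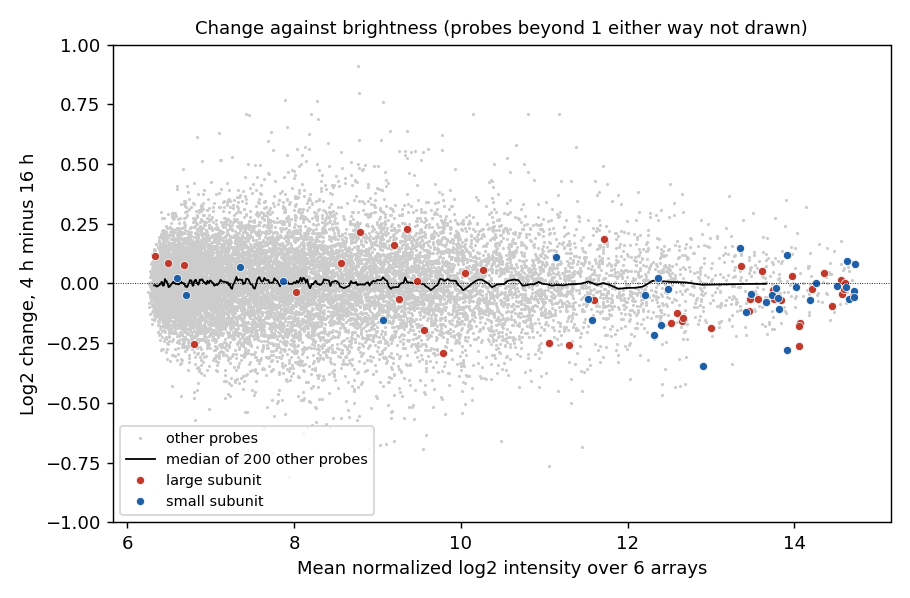
Log2 change (4 h minus 16 h) against mean normalized log2 intensity for the detected probes: other probes (grey), the running median of 200 of them (black line), and members of the large (red) and small (blue) subunit. The line stays near 0, the bright members lie more often under it than above it, and Rps10 is the lowest of them at -0.35.

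The lower members with the smallest p belonged to both subunits. Rps10, a small-subunit protein that is ubiquitinated when ribosomes collide (ILMN_2897617), had 12.72, 12.78 and 12.69 at 4 h and 13.06, 13.09 and 13.08 at 16 h on the normalized log2 scale. All 4 h arrays were below all 16 h arrays, with a change of -0.35 (SE 0.064, limma adjusted p = 0.247). On the deposited scale the same probe read 8689, 7404 and 7369 units at 4 h and 7842, 7651 and 6838 units at 16 h, so that its time points overlapped and its log2 ratio was 0.071 against 0.547 for the median detected probe. Over the settings tried, this ratio of deposited intensities apart, its change relative to the median of detected probes stayed between -0.37 and -0.32. The adjusted p-values by limma ran from 0.155 to 0.999.

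Rpl10a, the protein of the mobile stalk at the exit site of tRNA (ILMN_2902115), had 13.89, 14.01 and 13.88 at 4 h and 14.24, 14.26 and 14.07 at 16 h, a change of -0.26 (SE 0.079, limma adjusted p = 0.686). All its 4 h arrays were below all its 16 h arrays. Rpl32, of the large subunit (ILMN_1232890), had 13.97, 14.08 and 13.90 at 4 h and 14.08, 14.18 and 14.17 at 16 h, a change of -0.16 (SE 0.073, limma adjusted p = 0.919). Its highest 4 h array was just under its lowest 16 h array. Among the members without overlap that were lower, Rpl12 and Rps15 had changes of -0.19 and -0.17.

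The higher members were mostly dimmer. Rpl4, which lines the tunnel through which the new protein leaves (ILMN_2874507), had 9.45, 9.42 and 9.56 at 4 h and 9.23, 9.25 and 9.25 at 16 h. Its change was 0.23 with no overlap (SE 0.067, limma adjusted p = 0.678). A second probe of Rpl4 was at background. Rpl22 (ILMN_2659229) had 8.88, 8.88 and 8.93 at 4 h and 8.70, 8.75 and 8.59 at 16 h, a change of 0.21 (SE 0.069, limma adjusted p = 0.741). A probe of Rpl23 (ILMN_1238227) also showed no overlap, with a change of 0.16. The brighter Rpl23 probes ILMN_2946482 and ILMN_2742807 had overlapping time points and changes of 0.04 and -0.06. Rps13, at 0.15, overlapped. None of these passed the threshold.

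**Figure D3:**
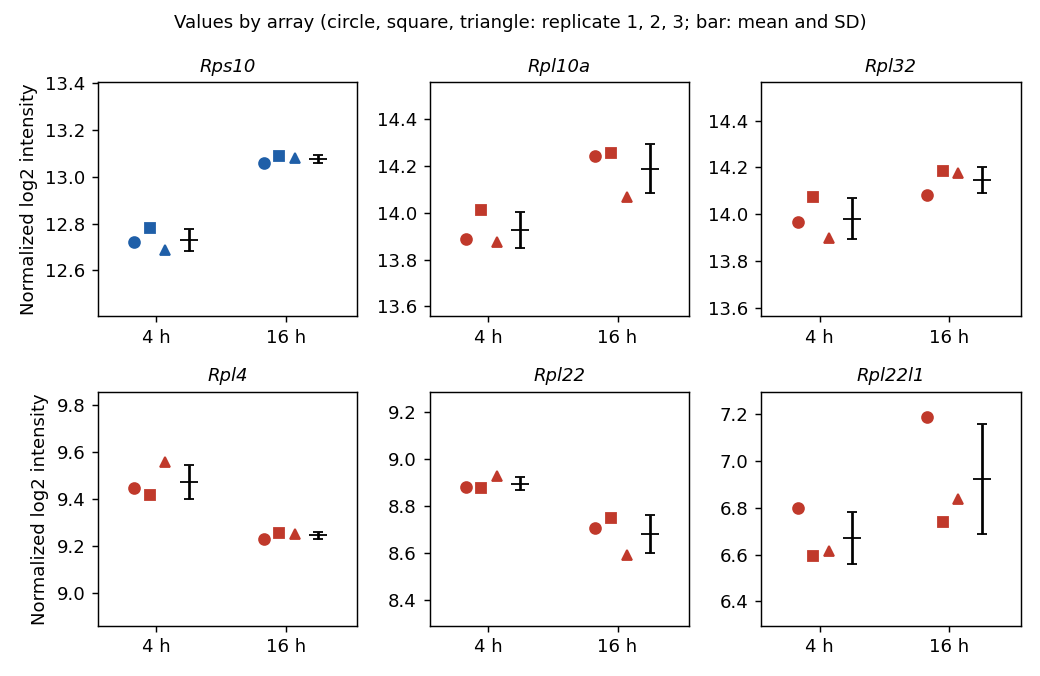
Normalized log2 intensity on each array for 3 lower members (Rps10, Rpl10a, Rpl32), for 2 higher members (Rpl4, Rpl22) and for Rpl22l1, the paralogue of Rpl22, on axes that all span 1 log2 unit; bars give the mean and SD of 3 arrays. Time points are separate for the first 5 and overlap for Rpl22l1.

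Members can also be read by their place in the ribosome. Around the port where the new protein leaves the large subunit lie, among others, Rpl19, Rpl26, Rpl31 and Rpl35. Their brightest probes had changes of -0.13, -0.11, -0.08 and -0.18, each with overlapping time points. They were chosen after their values were seen and are not a full list of the proteins there. They therefore describe single genes and not that place. Other large-subunit members went the other way, with 17 of 45 detected probes above 0, among them Rpl22 at 0.21. Rpl35 (ILMN_1227440) had 14.11, 13.90 and 13.89 at 4 h and 14.28, 14.02 and 14.13 at 16 h on the normalized log2 scale (SE 0.093, limma adjusted p = 0.921). Rpl39, which lies inside the tunnel next to Rpl4, had 0.03. In the stalk, Rplp1 and Rplp2 had 0.0031 and -0.02 and Rplp0, as given above, 0.09. In the small subunit, Rps2, at the entry of the mRNA, and Rps26, at its exit, had -0.02 and -0.06. Rps6, the substrate of S6 kinase (ILMN_2893077), had 12.44, 11.99 and 12.13 at 4 h and 12.48, 12.08 and 12.15 at 16 h, a change of -0.05 (SE 0.135, limma adjusted p = 0.985). Rps19, whose loss of function causes Diamond-Blackfan anaemia, had nearly the same value on every array, from 14.21 to 14.30, and a change of 0.00079.

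Members that are widely used as reference genes for PCR differed in what the array could show. Rpl13a (ILMN_2707834) had 11.32, 11.26 and 10.91 at 4 h and 11.57, 11.18 and 11.51 at 16 h, a change of -0.26 with overlapping time points (SE 0.133, limma adjusted p = 0.921). Rplp0 was read from 1 probe of middle brightness, and both probes of Rps18 were at background. Of the members with a bright probe, Rpl41 (ILMN_2620695), the smallest ribosomal protein, had a change of -0.10 and Rpl9 (ILMN_2851231) one of 0.02, with SEs of 0.066 and 0.080.

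Paralogues within the group were compared within each array, which cancels what the array does to both probes. Rpl22l1 (ILMN_2678755) had 6.80, 6.59 and 6.62 at 4 h and 7.19, 6.74 and 6.84 at 16 h, a change of -0.25 with overlapping time points (SE 0.118, limma adjusted p = 0.919), opposite in sign to that of Rpl22. The log2 difference between the Rpl22 and Rpl22l1 probes was 2.08, 2.28 and 2.31 at 4 h and 1.52, 2.01 and 1.75 at 16 h. Their means were 2.22 ± 0.12 (SD, n = 3) and, at the later time, 1.76 ± 0.25 (SD, n = 3), and all 4 h arrays lay above all 16 h arrays (exact two-sided permutation test, p = 0.1, adjusted 0.2 over the 2 pairs tested; 0.1 is the smallest value that 3 arrays against 3 allow). Rpl22l1 lay at percentile 21.3 of detected probes, where the offset of the correction shrinks changes.

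Rpl36a and Rpl36al encode nearly the same protein. The probe of the first minus that of the second gave a log2 difference of -1.13 ± 0.45 (SD, n = 3) for the 4 h arrays. For the 16 h arrays it was -1.05 ± 0.12 (SD, n = 3), and the change of -0.081 was within the spread (exact two-sided permutation test, p = 0.9, adjusted 0.9). Rpl36al itself changed by -0.06 with an SE of 0.083 and Rpl36a by -0.14 with an SE of 0.155. Without 4 h replicate 3, its lowest array, the value of Rpl36a relative to detected probes was 0.067. Rps27l, a paralogue of Rps27 that p53 induces, read 20902, 16802.5 and 11866 units at 4 h and 13595, 13329 and 12248.5 units at 16 h. Its change was -0.11 with overlapping time points (SE 0.141, limma adjusted p = 0.971), or 0.090 relative to detected probes without 4 h replicate 3. Rpl7l1, a relative of Rpl7, had a change of 0.01 (SE 0.129, limma adjusted p = 0.998). The partners Rps27 and Rpl7 were not analysed here. Rpl39 had a change of 0.03 and its paralogue Rpl39l was at background, as was Rpl3l.

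Several probes of a gene did not always give the same answer. Of 24 genes with several probes, 15 had at least 2 detected probes, and in 9 of these the signs of the changes differed. The spread between probes of a gene was 0.097 at the median and 0.33 at most, for Rpl29, where the brighter probe (ILMN_2857570) gave -0.25 with an SE of 0.156 and the dimmer one (ILMN_2730005) 0.08 with an SE of 0.072. Both probes of Rps9, at -0.018 and -0.024, and of Rps2, at -0.015 and -0.047, gave nearly the same value. All 3 probes of Rpl31 were below 0, at -0.08, -0.20 and -0.29. In 11 genes 1 or more probes were detected and another was not. Rpl37 had 1 probe among the 10 brightest of the table and 2 at background, and Rps24, whose transcripts are known to differ in their last exons, had probes at 14.66, 9.07, 7.87 and background.

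**Figure D4:**
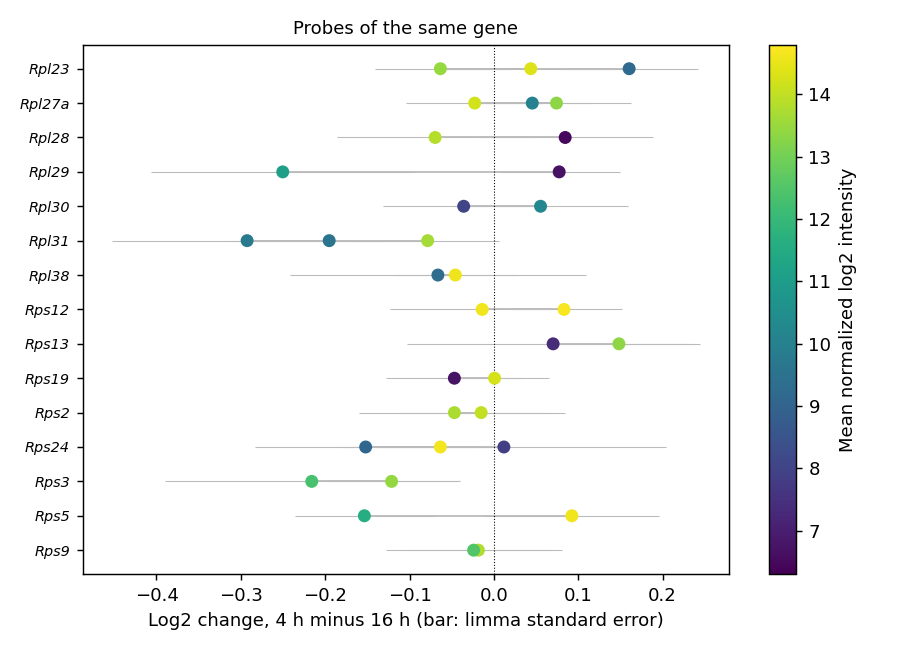
Log2 change (4 h minus 16 h) of each detected probe for the 15 genes with at least 2 such probes; colour gives the mean normalized log2 intensity and bars the limma standard error. In 9 genes the probes lie on both sides of 0, and Rpl29 has the widest spread, from -0.25 to 0.08.

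The members varied between arrays about as much as other probes of their brightness. The pooled SD within time points, on the normalized log2 scale, had a median of 0.128 over the 79 detected members against 0.142 for probes of like brightness, and 38 members were above their neighbours. It was 0.110 for large-subunit members, whose neighbours had 0.145, and 0.152 for small-subunit members, whose neighbours had 0.136. Rps10, at 0.036, had the lowest value, and Rps19 had 0.038. The largest value, 0.333, was that of the dimmest detected Rps24 probe (ILMN_1214875), which had 8.31, 7.88 and 7.42 at 4 h and 7.95, 7.68 and 7.95 at 16 h. Rps27a (ILMN_3046846) was next with 11.47, 11.12 and 11.01 at 4 h and 11.53, 10.75 and 10.98 at 16 h, followed by the dim Rpl38 probe (ILMN_2594971) at 0.301. In the latter 2 the highest value of each time point was that of replicate 1, and this held for many members. On 4 h replicate 1, 41 of 79 members had their highest value of the time point, and on 16 h replicate 1, 44 did. The median deviation of the members from their time point's mean was 0.072, -0.0069 and -0.044 on the 4 h arrays and 0.048, -0.060 and 0.012 on the 16 h arrays, while that of the other detected probes lay between -0.014 and 0.010. On 3 of the 6 arrays this deviation was larger in size than the median change of -0.047 between the time points.

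Quantile normalization gives every array the same brightest values, and members fill much of that range, so the deposited intensities were also compared. All but 1 of the 79 detected members (Rpl22l1) had a higher mean intensity at 4 h than at 16 h, as the arrays as a whole did. The log2 ratio of 4 h over 16 h was 0.33 at the median of the members, 0.40 for probes of like brightness and 0.55 for all detected probes, and 57 of 79 members were below their neighbours in brightness, by 0.063 at the median. Among the 100 brightest probes the median was 0.29 for 24 members and 0.32 for 76 others. It was 0.36 for those of the others that carried a present gene name. With neighbours restricted to such names, 61 of 79 members were below them, by 0.093 at the median. In the class ranked 401 to 800 it was 0.35 for 6 members and 0.46 for 394 others, and among the dimmest detected probes it was 0.67 for 9 members and 0.59 for 8532 others. The ratio thus fell with brightness in both groups of probes.

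**Figure D5:**
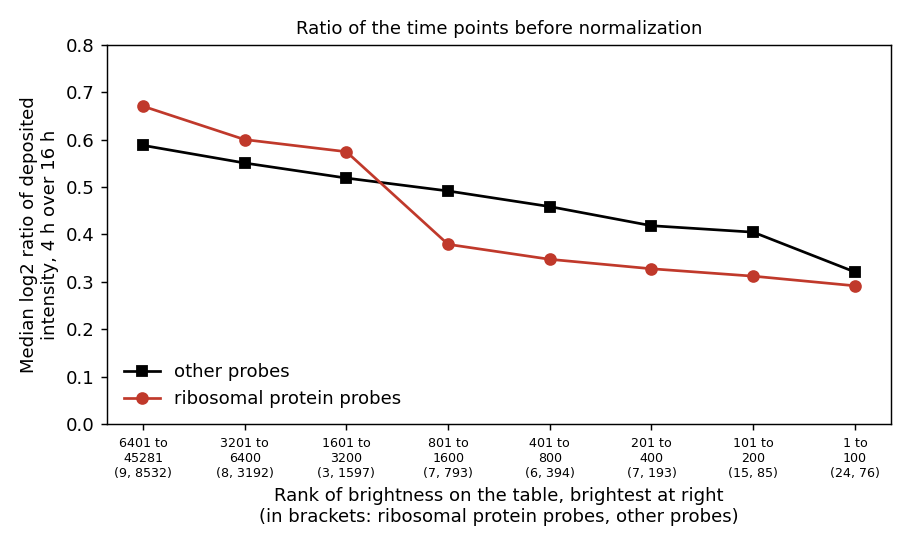
Median log2 ratio of deposited intensity, 4 h over 16 h, in classes of brightness rank, for ribosomal protein probes (red circles) and other detected probes (black squares); the brackets on the axis give the number of each. The ratio falls toward the brightest class in both, from 0.67 to 0.29 for members and from 0.59 to 0.32 for others.

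Other genes of the pathway were described from lists, in each of which no gene passed the limma threshold in either direction. Of the ribosomal proteins that the symbol rule does not reach, Gnb2l1, the scaffold RACK1 of the small subunit, had -0.15, and Rpsa exceeded the noise limit on 3 arrays. Among 15 other mRNAs with a known TOP tract, 13 were detected, 5 below and 8 above 0, with a median of 0.012. Eef1a1, the elongation factor that delivers tRNA, had -0.17, and Hnrnpa1, an RNA-binding protein, had 0.71 with SDs of 0.51 and 0.56 within the time points (limma adjusted p = 0.919 and 0.903).

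Factors that build ribosomes also gave no calls. Of 22 factors of ribosome assembly and export, 20 were detected, 16 with a change above 0 and 4 below, with a median of 0.084. An unadjusted p under 0.05 was reached by 5 of them, Gtpbp4, Bccip, Brix1, Rrp12 and Ltv1, all higher at 4 h, where 5.72% of detected probes were. Gtpbp4, a GTPase of the large subunit's assembly, had a change of 0.19 (SE 0.070, limma adjusted p = 0.833), and Rrp12, of subunit export, one of 0.29 (SE 0.114, limma adjusted p = 0.877). For RNA polymerase I the median was 0.054 over 9 detected genes, 6 above 0, with Polr1e at 0.16 and Polr1a at 0.14. For rRNA modification and processing it was 0.011 over 16 genes, 8 above 0, with Nhp2, of the pseudouridylation complex, at 0.28 and Nop56 at 0.21. For the control of translation it was 0.045 over 11 genes, 7 above 0, with Eif4ebp2, a repressor of cap-dependent initiation, at -0.34 (limma adjusted p = 0.675) and Rptor, a subunit of mTOR complex 1, at 0.21 (limma adjusted p = 0.900).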

How the data were processed

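RNA of 6 samples of mGLUTag cells, 3 at 4 h and 3 at 16 h, was run on mouse WG-6 V2 Illumina BeadChips at a genomics centre. The deposited values are intensities on a linear scale, 1 per probe and array, with background already subtracted and no normalization between arrays. Detection p-values, control probes, scanner settings and slides are not given in the sources used here. In R 4.3.3, limma 3.58.1 was used for normexp correction with an offset of 50, for quantile normalization and for the test, which ran on log2 values. Time point was the only term of the model, fitted to all probes and adjusted by the Benjamini-Hochberg method (two-sided, threshold 0.05), and the fit was tested on simulated data. The offset shrinks changes of dim probes. Probes of like brightness are the 200 nearest detected non-members. Of 68 symbols, 67 matched RefSeq (GRCm38.p6) by symbol and 1, Rps3a, by synonym.

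Named were Rpl3, Rps3 and Rplp0, the 5 detected probes with the smallest p in each direction, and paralogues. Also named were genes whose probes disagreed (by over 0.3 or in detection) and the 3 brightest and 3 dimmest detected genes of each subunit. The 3 probes with the largest SD and 2 genes with the smallest p per list were named as well. Others were chosen after their values were seen. The members, the lists and the tests were chosen with earlier results of these data known. Arrays carry no counts, so their number limits precision. Some genes that these rules name are not reported here.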

Additional observations from a re-analysis of the deposited data

How the results depend on the processing

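Of 18 alternatives, 16 called no member, among them leaving out any 1 array (0 to 0 calls). Median scaling called 3 and no between-array normalization 6, all higher at 4 h. These settings move the median detected probe by 0.30 and 0.39 and call 832 and 2308 probes of the table, so values below are relative to that median. The median change of the members was -0.048 and became -0.22 on the deposited intensities. Leaving out 1 array gave -0.075 to -0.012, and relative to probes of like brightness -0.076 to -0.00014. The large minus small subunit difference ran from -0.021 to 0.041 without 1 array and was 0.011 with the 18S level as a block. The median SD of 0.128 was 0.152 without background correction, 0.145 with an offset of 16, 0.168 with median scaling, 0.193 without between-array normalization, and 0.116 to 0.130 without 1 array. Whether the replicate numbers pair the samples is not given in the sources used here. Deviations from the time point's mean correlated at 0.25, 0.17 and -0.49 between same-numbered arrays, over detected probes. With so few arrays these values cannot settle whether samples were paired. The replicate block gave 0 calls and left the median at -0.048. Slide and scan date were not run as blocks, since neither is given. Deposited intensities, neighbours with present gene names only, and the brightest probe per gene were chosen after seeing the data.

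Of 33 named probes, 15 kept their direction under every setting, and 59 of 594 values turned, 30 of them without 1 array. The cause was not tested. With the 18S block Rps24 (ILMN_1214875) was -0.0094, Rpl23 (ILMN_2946482) -0.0098, Rps27a -0.019, Rpl39 -0.027, Rps15a -0.027, Rpl7l1 -0.041 and Rplp1 -0.051. With cyclic loess Rpl39 was -0.018, Rpl23 -0.049 and Rplp1 -0.076. With median scaling or none Rps12 was -0.016, Rpl39 -0.020, Rpl23 -0.065, Rplp1 -0.10, Rpl21 -0.11, Rps15a -0.13, Rps3a 0.024 and Rpl38 (ILMN_2594971) 0.025. Rps24 was -0.0053 without background correction and -0.055 with probes averaged, where Rpl27a was 0.029. Median scaling called Rpl23 (ILMN_1238227) at 0.25 and Rpl4 at 0.32, and no normalization also Rplp0 at 0.17 and Rpl22 at 0.30. Without 1 array, values ran from -0.14 to 0.0059 for Rpl18, -0.064 to 0.13 for Rpl23, -0.089 to 0.025 for Rpl27a, -0.29 to 0.067 for Rpl36a, -0.12 to 0.0089 for Rpl36al, -0.25 to 0.11 for Rpl38, -0.021 to 0.088 for Rpl39, -0.16 to 0.11 for Rpl7l1, -0.011 to 0.23 for Rplp0, -0.042 to 0.061 for Rplp1, -0.087 to 0.010 for Rplp2, -0.11 to 0.14 for Rps15a, -0.21 to 0.23 for Rps24, -0.058 to 0.33 for Rps27a, -0.21 to 0.090 for Rps27l and -0.22 to 0.14 for Rps3a.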
